A study of Mus musculus with 32 samples.

Results

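Collagens and laminins are the main structural proteins of the extracellular matrix. The genes described here are those whose symbol is Col, a number, a and a number, or Lama, Lamb or Lamc and a number, taken from 5 deposited tables of normalised RNA-seq counts. The rule found 46 genes of 17440 listed in any table: 35 collagens and 11 laminins. The tables list different genes, by a rule not given in the sources used here: 42 of the 46 are in that of the Chd4 hairpin, 38 in that of the serum cells, 27 in that of CTCF degradation, 26 in that of overexpression and 25 in that of RAD21 degradation. In all 5 tables, 21 of the genes are listed. Found only in the Chd4 table are 6 (Col15a1, Col6a1, Col6a2, Col6a3, Lama2 and Lamc3), and 4 are found only in that of the serum cells (Col3a1, Col6a6, Col8a1 and Col8a2).

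Collagens are trimers of alpha chains with a triple helix. Collagen IV and the laminins build the basement membrane, the thin sheet beneath epithelia that forms early in mouse development between the epiblast, primitive endoderm and trophectoderm. A laminin is a cross-shaped trimer of 1 alpha, 1 beta and 1 gamma chain, and the choice of chain sets the type of laminin. Fibrillar collagens form the fibres of connective tissue, FACIT collagens sit on those fibres, collagen VI makes beaded filaments, collagen VII anchors epithelia, transmembrane collagens span the cell surface, and the multiplexins XV and XVIII lie in or next to basement membranes. Cultured embryonic stem cells are known to secrete laminin.

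All 32 libraries come from the mouse embryonic stem cell line E14, in 16 groups of 2 libraries. Every group but those of the RAD21 series carries CTCF AID, an auxin-inducible degron tag on CTCF, the zinc-finger DNA-binding protein that stops cohesin loops. CTCF AID cells had IAA, an auxin, at 500 μM for 0, 12 or 24 h. Those labelled as serum condition had it for 0 or 12 h. RAD21 AID cells, with the tag on the cohesin subunit RAD21, had 5-Ph-IAA at 1 μM for 0, 12 or 24 h; their treatment labels say IAA. CTCF AID cells with an overexpressed control, wild-type CTCF or mutated CTCF were each taken with and without IAA, and the labels do not say which mutation it is. For the mutated CTCF group titled as without IAA and the wild-type CTCF group titled as with IAA, the treatment label says the opposite; groups here follow the titles. CTCF AID cells with a hairpin against Chd4, the ATPase of the NuRD chromatin remodelling complex, were set against a control hairpin, with no auxin named in their labels. The same serum-free medium with LIF and 2 kinase inhibitors is described for all samples, the serum-labelled ones included. Nothing in the labels says that the 2 libraries of a group came from separate cultures, so p-values measure the spread between these libraries.

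The pluripotency genes Pou5f1, Nanog and Sox2 were expressed in all 32 libraries, with lowest normalised counts of 8500, 3631 and 4637. Library totals ranged from 15364584 to 19642332. Chd4 itself had 9923 and 9526 normalised counts in the control hairpin libraries and 3379 and 3729 in the Chd4 hairpin libraries, a difference of -1.45 ± 0.06 (SE) on the log2 scale (limma, adjusted p = 4.95e-06). The degrons act on protein, so transcript levels do not check them. In these bulk samples, fewer cells of a type and less RNA per cell cannot be told apart.

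The 4 stretches of DNA below stand for the contrasts that follow, each the 250 bases before the RefSeq transcript start (GRCm38.p6), written 5′ to 3′ on the gene's strand. Col27a1 fell each time CTCF was degraded without added CTCF, Lama5 rose with the Chd4 hairpin and with CTCF degradation outside the serum cells and without added CTCF, Col11a1 fell with the Chd4 hairpin, and Col15a1 was listed at 0 in both control hairpin libraries. They lie at chr4:63215162-63215411, plus strand (Col27a1), chr2:180225860-180226109, minus strand (Lama5), chr3:114030290-114030539, plus strand (Col11a1) and chr4:47207762-47208011, plus strand (Col15a1). No exon annotated in GENCODE M21 overlaps them; the Col27a1 stretch lies in an intron of an M21 transcript that starts further upstream. Capitals mark matches on either strand. The letters AGGGGGC are the core of the CTCF binding consensus. GC boxes are written GGGCGG, as bound by factors of the Sp family. The CCAAT box is searched by its name, and the TATA box as TATAAA.
Col27a1: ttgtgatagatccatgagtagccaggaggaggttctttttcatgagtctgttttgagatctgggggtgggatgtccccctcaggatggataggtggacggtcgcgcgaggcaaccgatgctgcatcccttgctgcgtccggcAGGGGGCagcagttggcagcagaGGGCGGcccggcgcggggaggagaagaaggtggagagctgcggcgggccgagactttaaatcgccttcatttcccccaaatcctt
Lama5: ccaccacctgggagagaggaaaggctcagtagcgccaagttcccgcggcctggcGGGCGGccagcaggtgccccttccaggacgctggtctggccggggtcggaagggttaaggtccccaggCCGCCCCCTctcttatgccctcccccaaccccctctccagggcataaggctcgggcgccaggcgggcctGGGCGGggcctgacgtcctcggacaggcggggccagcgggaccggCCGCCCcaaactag
Col11a1: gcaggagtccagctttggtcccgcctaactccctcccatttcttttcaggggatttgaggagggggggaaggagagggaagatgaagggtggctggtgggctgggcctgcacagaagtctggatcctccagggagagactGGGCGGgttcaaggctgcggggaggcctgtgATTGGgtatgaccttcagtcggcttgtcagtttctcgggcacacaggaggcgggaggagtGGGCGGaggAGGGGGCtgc
Col15a1: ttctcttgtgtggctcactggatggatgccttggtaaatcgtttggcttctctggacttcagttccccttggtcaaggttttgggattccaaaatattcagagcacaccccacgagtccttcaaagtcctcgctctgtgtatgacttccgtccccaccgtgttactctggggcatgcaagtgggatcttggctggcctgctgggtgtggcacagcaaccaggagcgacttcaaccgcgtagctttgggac

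Of the 46 genes, 32 had such a stretch in the RefSeq table. The CTCF core occurred in 7 of those 32 (Col11a1, Col16a1, Col27a1, Col4a2, Col4a5, Lama5 and Lamb1) and in 2511 of all 27025 such stretches (9.29%). It stands 108 to 102 bases before the start in Col27a1, 126 to 120 in Lama5 on the other strand, where it overlaps a GC box, and 10 to 4 in Col11a1. A longer CTCF pattern was searched first, matched Col27a1 alone among the members and was replaced by this core. Both were chosen after the Col27a1 stretch had been read, so the matches are a description. GC boxes occurred in 21 of the 32 against 32.9% of all stretches, CCAAT boxes in 12 against 34.5%, and TATA boxes in 4 against 13%. A member counted if any stretch listed for it matched, whereas the 27025 hold 1 stretch per gene, so these shares may not be alike. Lama5 has 4 GC boxes, Col27a1 has 1, Col11a1 has 2 and a CCAAT box on the other strand, and Col15a1 has no match to any of the motifs. The dinucleotide CG occurred 19 times in Lama5, 15 in Col27a1, 8 in Col15a1 and 7 in Col11a1, with a median of 6 over all stretches.

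With the Chd4 hairpin, more collagen and laminin genes rose than fell, also among those with a control mean of at least 10. The laminin chains Lama1, Lamb2 and Lamc1 fell. Of 36 members tested with limma on log2(value + 1), 25 were higher and 6 lower at an adjusted p under 0.05 over all genes of the table. This table moved as a whole: 67.4% of 15499 genes were called, 33.5% as higher and 33.8% as lower. The median log2 difference was 2.00 over the tested members and 0.01 over all genes tested. The first median includes the members, given next, that had to be higher. A gene was tested if its mean over the table was at least 10. Of the tested members, 11 had a control mean under 10, so that they entered through the Chd4 hairpin libraries and had to be higher. Of these, 10 were called higher: Col15a1, Col16a1, Col1a1, Col22a1, Col23a1, Col6a1, Col6a3, Col6a4, Col6a5 and Lamb3. Their calls support nothing. Among the 25 with a control mean of at least 10, 15 were higher, 6 lower and 4 not called. Scaling libraries to equal totals moved the median over all genes to 0.10 and left the direction of every called member as it was.

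Basement membrane laminins divided by chain. Lamc1, the gamma chain of most laminins, was the most abundant member per length in the control cells, at 964 normalised counts per kb of exon. It fell from 8199 and 7746 to 4930 and 5208 normalised counts, 0.65 on the log2 scale ± 0.05 (SE, limma, adjusted p = 4.98e-05). The 2 control libraries lay above both Chd4 hairpin libraries.

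The beta chains moved in opposite directions. Lamb2, the later-appearing beta chain of neuromuscular and kidney laminins, stood at 1539 and 2091 in the controls and at 445 and 464 with the Chd4 hairpin, a difference of -1.98 ± 0.14 (SE) on the log2 scale (limma, adjusted p = 3.27e-05). Lamb1, the beta chain of the embryonic laminins, rose from 772 and 728 to 1590 and 1657, a difference of 1.11 ± 0.07 (SE) on the log2 scale (limma, adjusted p = 1.7e-05). Per kb of exon, Lamb1 made up 23.5% and 17.6% of beta chain signal in the control libraries and 65.6% and 64.0% in the Chd4 hairpin libraries. Lamb3, a partner of Lama3 in the epidermal laminin, rose from 4.02 and 3.44 to 72.0 and 116. It passed the filter only through the Chd4 hairpin libraries, so that it had to differ.

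Among the alpha chains, which carry the sites that cell-surface receptors bind, Lama1 and Lama5 went opposite ways. Lama1, the alpha chain of the first embryonic laminin, fell from 1829 and 1920 to 1093 and 1008, 0.83 on the log2 scale ± 0.07 (SE, limma, adjusted p = 5.68e-05). Lama5, the broadly used alpha chain that also supports stem cell culture, rose from 2057 and 1975 to 4831 and 4931, a difference of 1.28 ± 0.05 (SE) on the log2 scale (limma, adjusted p = 4.09e-06). Lama5 thereby went from 46.5% ± 1.46 to 75.8% ± 1.05 (SD, n = 2 each) of alpha chain signal per kb, and Lama1 from 50.8% ± 1.63 to 19.2% ± 1.11. The groups did not overlap for either share.

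Lama3, the epidermal alpha chain, rose from 96.7 and 90.8 to 233 and 238, and Lama4, the endothelial and mesenchymal one, from 19.6 and 13.2 to 70.6 and 66.5. Of the chains of the first embryonic laminin, Lamb1 rose as its partners Lama1 and Lamc1 fell. Lama2, the muscle alpha chain, and Lamc3 were listed at 0 to 3.39 in the controls and at 7.79 to 14.7 with the Chd4 hairpin, under the level needed for the test.

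Collagen IV, the network collagen of basement membranes, rose in its common pair of chains. Col4a1 stood at 88.7 and 170 in the controls and at 765 and 720 with the Chd4 hairpin, a difference of 2.59 ± 0.27 (SE) on the log2 scale (limma, adjusted p = 0.000201). Col4a2 stood at 56.4 and 52.4, then at 533 and 458, a difference of 3.16 ± 0.15 (SE) on the log2 scale (limma, adjusted p = 7.8e-06). These genes lie head to head on chromosome 8 and overlap by 22 bases in M21. Strand use in the counting is not given, so reads from that overlap cannot be told apart. Col4a5, a chain of kidney and other adult basement membranes, stood at 4.62 and 7.51 against 11.1 and 23.3 and missed the call (limma, adjusted p = 0.0527).

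Both multiplexins were called higher. Col18a1, source of the endostatin fragment and the most abundant collagen gene per kb in the control hairpin cells, rose from 1504 and 1503 to 4262 and 3995, a difference of 1.46 ± 0.05 (SE) on the log2 scale (limma, adjusted p = 3.89e-06). Col15a1 was listed at 0 in both controls and at 51.5 and 52.8 with the Chd4 hairpin, so no fold is given. It passed the filter only through the Chd4 hairpin libraries, so that it had to differ.

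Collagen VI was near or at 0 in the controls and present in every Chd4 hairpin library. Col6a4 went from 6.54 and 1.72 to 363 and 341, and Col6a1 from 1.89 and 0 to 162 and 150. Col6a5 stood at 0.78 and 0, then at 28.0 and 90.7, and Col6a3 at 0 and 1.6, then at 34.0 and 12.4. These 4 were called higher and passed the filter through the Chd4 hairpin libraries. Col6a2, which with Col6a1 and Col6a3 makes the classical heterotrimer, reached 10.6 and 13.1 from 0 and 0 and was not tested. Col6a6 is not in the table. Col6a4, Col6a5 and Col6a6 lie in a row on chromosome 9, within 28.8 kb of their neighbours, and Col6a1 and Col6a2 lie 85.2 kb apart on chromosome 10.

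**Figure D1:**
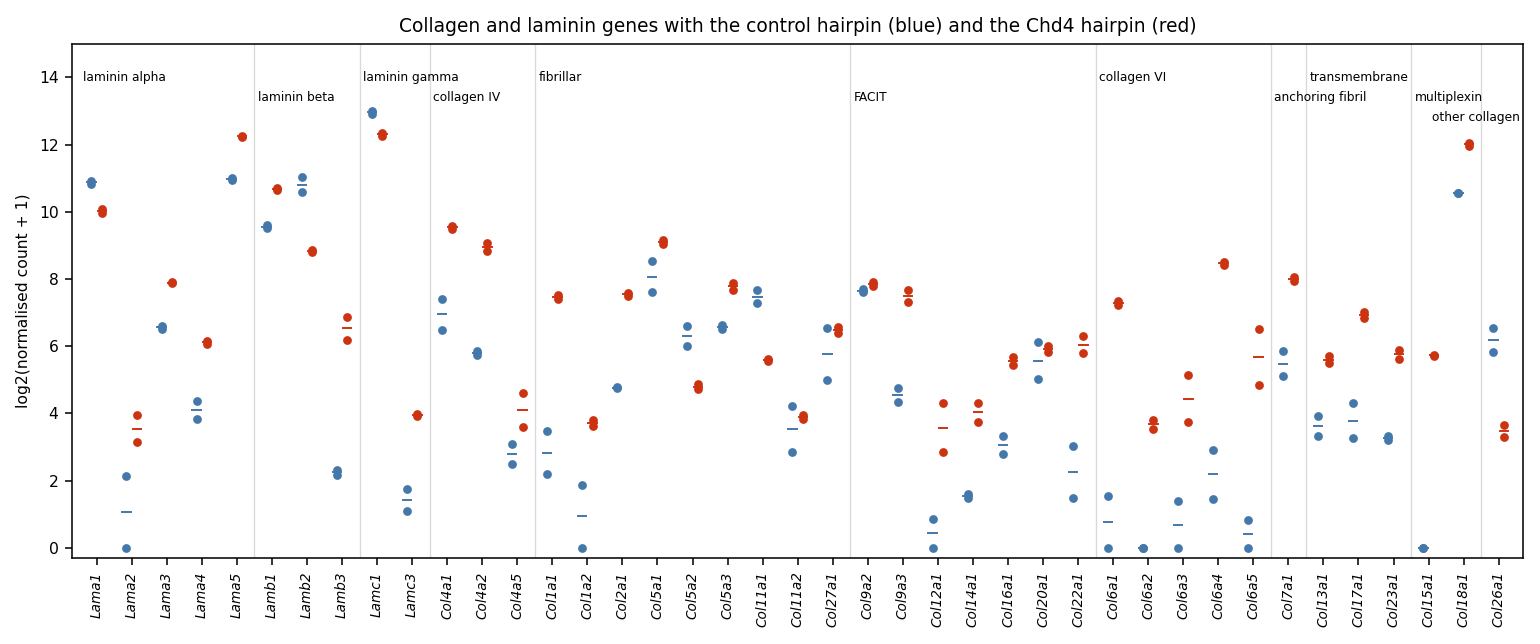
Normalised counts of 41 of the 42 listed collagen and laminin genes as log2(value + 1), with each point a library and each short line the mean of 2 libraries, control hairpin in blue and Chd4 hairpin in red, ordered by matrix class. Collagen VI genes lie near 0 in blue and well above it in red, while Lama1, Lamb2 and Lamc1 are lower in red.

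The fibrillar collagens did not move as one. Col1a1, the main chain of bone and skin collagen I, rose from 10.1 and 3.54 to 167 and 185. The gene passed the filter only through the Chd4 hairpin libraries, so that it had to differ. Its partner Col1a2 reached only 11.4 and 13.0 from 0 and 2.66 and was not tested. Col2a1, the cartilage collagen, rose from 26.0 and 26.4 to 191 and 181, a difference of 2.78 ± 0.19 (SE) on the log2 scale (limma, adjusted p = 3.29e-05). Col5a1 and Col5a3, chains of the minor fibrillar collagen that starts fibrils, rose by 1.03 and 1.21 on the log2 scale.

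Other fibrillar genes fell. Col11a1, a cartilage fibril chain, went from 201 and 155 to 48.5 and 46.0, a difference of -1.88 ± 0.20 (SE) on the log2 scale (limma, adjusted p = 0.000212). Col5a2 went from 96.3 and 62.7 to 28.1 and 25.4, a difference of -1.51 ± 0.28 (SE) on the log2 scale (limma, adjusted p = 0.00298), opposite to Col5a1 and Col5a3, its partners in collagen V. With other processing or 1 library left out, the difference of Col5a2 ranged from -2.04 to -1.20 and its call was not always kept. Col11a2 (17.4 and 6.25, then 14.62 and 13.3) and Col27a1 (91.2 and 30.8, then 93.7 and 83.6) were not called, and their groups overlapped.

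Surface and junction collagens rose. Col7a1, the anchoring fibril of skin, went from 33.2 and 57.0 to 245 and 267, and the hemidesmosome collagen Col17a1 from 8.57 and 18.8 to 128 and 114. The other transmembrane collagens, Col13a1 and Col23a1, rose to 51.5 and 43.8 and to 47.8 and 58.5, from control values between 8.26 and 14.2. All 4 were called higher, beside 33.5% of all genes, though Col23a1 passed the filter only through the Chd4 hairpin libraries and had to differ.

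Of the FACIT collagens, Col9a3 rose from 25.8 and 19.2 to 202 and 159, a difference of 2.96 ± 0.25 (SE) on the log2 scale (limma, adjusted p = 7.07e-05). Its partner in cartilage collagen IX, Col9a2, stood at 207 and 195 against 220 and 241 and was not called (limma, adjusted p = 0.199). Col22a1 and Col16a1 were called higher from control values of 1.81 to 8.96. Both passed the filter only through the Chd4 hairpin libraries, so that they had to differ. Col20a1 was not called, and Col12a1 and Col14a1 stayed under the tested level at 6.13 to 18.9 with the Chd4 hairpin. Col26a1, placed in no class, fell from 56.3 and 92.1 to 8.85 and 11.7, a difference of -2.71 ± 0.35 (SE) on the log2 scale (limma, adjusted p = 0.000501).

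Genes that modify, fold and process collagen moved both ways. Of 28 tested, limma called 11 higher and 6 lower, or 60.7% against 67.4% of all genes. Among these, Adamts2 and Loxl4 (higher) and Tll1 (lower) passed the filter only through the group where they were high. Among the called genes with the highest levels, the lysyl hydroxylase Plod2 rose from 2462 and 2420 to 4354 and 4215, the collagen galactosyltransferase Colgalt1 from 2690 and 2707 to 3813 and 3997, and the collagen chaperone Serpinh1 from 1004 and 1071 to 3104 and 2952. The prolyl hydroxylase subunit P4ha1, named after its value was seen, fell from 1767 and 1579 to 514 and 579.

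Of 13 other basement membrane genes tested, 7 were higher and 4 lower, or 84.6% against 67.4% of all genes. Agrn, a heparan sulphate proteoglycan, rose by 0.51 on the log2 scale, while the laminin-binding linkers Nid1 and Nid2 fell by 0.91 and 0.16. Of 15 receptors tested, 5 were higher and 4 lower, or 60% against 67.4% of all genes. Sdc4 and Dag1 (dystroglycan) rose by 0.50 and 0.22, and Itgb1, the common integrin beta chain, fell by 0.90. Ddr2, a receptor tyrosine kinase for fibrillar collagen named after its value was seen, rose from 38.1 and 30.9 to 649 and 585.

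Markers of several cell types moved in the same libraries, and their part in the matrix changes was not tested. The counts below stand beside 33.5% of all genes called higher and 33.8% called lower. Of 8 pluripotency markers, 6 were lower and 0 higher, and their summed level went from 123242 to 124942 in the controls to 77462 to 78745. Of 9 primitive and parietal endoderm markers tested, 6 were higher and 2 lower, with a summed level of 522 to 660 against 3336 to 3342. In that list Lrp2 rose from 380 and 454 to 2322 and 2327, and Dab2 from 1.74 and 1.82 to 613 and 620. Of its defining factors, Gata6 rose from 9.71 and 17.0 to 76.0 and 102, Gata4 fell from 40.1 and 42.9 to 8.34 and 8.93, and Sox17 fell from 17.8 and 16.0 to 4.17 and 3.19.
Of 7 trophoblast markers, 4 were higher and 1 lower (2040 to 2104 against 2441 to 2604 in sum). Among fibroblast markers, 3 of 5 listed were higher (346 to 414 against 536 to 592), and Dcn, Lum and Fap were not listed in any table. Muscle and endothelial markers had 2 of 6 higher, near the 33.5% of all genes, with summed levels of 1734 to 1787 and 1898 to 2048. Amn, Dab2, Sox7, Gata3, Postn, Tie1 and Myh11 had control means under 10, and Gata4 and Sox17 had Chd4 hairpin means under 10. These markers passed the filter only through the group where they were high, so that their calls had to come out this way.

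The serum-labelled CTCF AID cells differed from most groups in their matrix genes before any IAA. Per kb, Col18a1 was the most abundant member there (860 in cells without IAA), whereas Lamc1 had the highest mean in every other group. In 1 Chd4 hairpin library Col18a1, at 607, also exceeded Lamc1, at 596. Lama5 made up 70.8% to 76.2% of alpha chain signal in the 4 serum libraries and 37.6% to 55.4% in the 26 libraries outside the serum and Chd4 hairpin groups. For Lamb1 the share of beta chain signal was 77.6% to 81.4% against 6.67% to 26.4%. The Chd4 hairpin libraries, at 75.1% and 76.5%, lay within or next to the serum range for Lama5, and at 65.6% and 64.0% between the serum and the other libraries for Lamb1. Shares are taken within a library, so a scale factor common to all its genes would cancel, but the normalisation is not given. Lama4 and Lamb3 enter the sums only where a table lists them. Culture, table and deposit differ together between these groups, and no test was made.

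**Figure D2:**
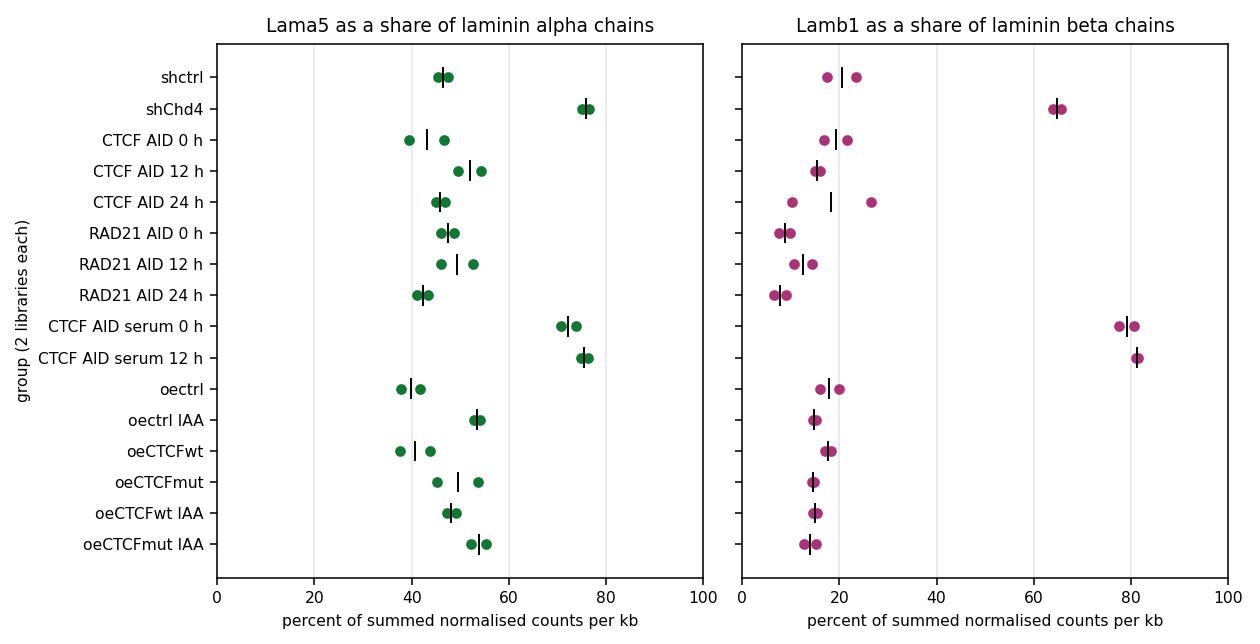
Share of 1 chain in the summed normalised counts per kb of its laminin chain type, in percent, for each of 2 libraries (points) and their mean (black line) in 16 groups. The Lama5 and Lamb1 shares are high in the Chd4 hairpin and serum groups.

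Levels in the untreated serum cells also differed by collagen gene from those of untreated CTCF AID cells without the serum label, in tables normalised separately. Col4a1 was at 583 and 528 in serum against 54.8 and 52.4, Col4a2 at 316 and 338 against 86.3 and 67.2, and Col1a1 at 431 and 392 against 15.7 and 12.3. Col12a1, Col14a1, Col1a2, Col22a1, Col3a1, Col4a5, Col6a4, Col6a5, Col6a6, Col8a1, Col8a2, Lama4 and Lamb3 were listed in the serum table and not in the CTCF degradation table. The summed endoderm markers were 2915 to 3073 in serum and 259 to 285 without it, with 8 and 4 of the 12 listed; their part was not tested. No fold is given across these tables.

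Degrading CTCF changed few matrix genes. After 12 h in the CTCF degradation table, limma called 5 of 26 members, which is 19.2% against 17.8% of all genes: 2 were higher, against 9.39% of all genes, and 3 lower, against 8.4%. After 24 h it called 5 of 26 again, against 22.5% of all genes, with 2 higher (11.7% of all genes) and 3 lower (10.8%). The share of members called was thus near that of all genes. Both times share the 0 h libraries. Of all genes called at 12 h, 52.8% were higher as deposited and 42.6% with libraries scaled to equal totals; no called member changed direction under that scaling.

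Col9a2, a chain of the FACIT collagen IX, fell at both times. Its normalised counts were 683 and 608 at 0 h, 91.6 and 84.1 at 12 h, and 64.6 and 67.8 at 24 h. The log2 differences were -2.86 ± 0.15 at 12 h (SE, limma, adjusted p = 0.000102) and -3.26 ± 0.15 at 24 h (adjusted p = 5.46e-05), and groups did not overlap. In the overexpression table, where untreated libraries had lower values, the gene rose with IAA: from 107 and 78.2 to 180 and 208 with the control (log2 difference 1.07 ± 0.27, SE, limma, adjusted p = 0.0153). It rose there too with wild-type CTCF, from 66.7 and 62.9 to 163 and 150, while the mutated CTCF cells went from 139 and 71.7 to 254 and 205 (limma, adjusted p = 0.00816 and 0.0137). In serum it stood at 111.1 and 113, then 127 and 104, and was not called. With RAD21 degradation it had 238 and 196 at 0 h and 161 and 140 at 12 h, which was not called, and fell to 76.9 and 70.2 at 24 h (log2 difference -1.54 ± 0.17, SE, limma, adjusted p = 0.00257).

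Col27a1, a fibrillar collagen of cartilage, fell in all 3 tables with CTCF degradation. It stood at 20.5 and 34.2 at 0 h, 1.24 and 3.49 at 12 h, and 0.87 and 0 at 24 h. Its mean over that table, 10.1, passed the filter of 10 only through the 0 h libraries, so that it had to differ and its calls there, 1 of the 3 lower at each time, support nothing. In serum it went from 60.7 and 30.5 to 6.19 and 4.72, a difference of -2.78 ± 0.42 (SE) on the log2 scale (limma, adjusted p = 0.00522). With the overexpression control it went from 39.2 and 19.2 to 1.54 and 5.00, a difference of -2.87 ± 0.46 (SE) on the log2 scale (limma, adjusted p = 0.00107). In these tables too the mean with IAA, 5.45 and 3.27, was under 10 and the untreated mean above it. In serum the gene thus passed the filter only through the untreated libraries, so that this call too had to differ. No library with CTCF degraded reached the lowest untreated library of its table in these 3 settings.

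With added CTCF, the falls of Col27a1 under IAA were not called, and neither was their difference from the control. It was at 50.1 and 54.0 without and 18.3 and 22.0 with IAA in wild-type CTCF cells, and at 70.6 and 56.7 without and 33.3 and 21.8 with IAA in mutated CTCF cells. For these changes the limma adjusted p was 0.0626 and 0.105. The difference from the control cells' IAA effect was 1.54 ± 0.65 with wild-type and 1.66 ± 0.65 with mutated CTCF on the log2 scale (SE, limma), and neither passed correction (adjusted p = 0.384 and 0.312). With RAD21 degraded, the gene was at 42.3 and 44.5 at 0 h, 44.5 and 35.4 at 12 h, and 31.7 and 31.7 at 24 h, and was not called.

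Lama5 rose when CTCF was degraded without the serum label. It was at 1928 and 1323 at 0 h, 2612 and 3077 at 12 h, and 2803 and 3377 at 24 h, with log2 differences of 0.83 ± 0.18 (SE, limma, adjusted p = 0.0206) and 0.95 ± 0.18 (adjusted p = 0.0103). With the overexpression control it went from 2386 and 2043 to 3294 and 3675 (log2 difference 0.66 ± 0.10, SE, limma, adjusted p = 0.000986). In serum it stood at 3205 and 3497 and then at 3172 and 3438, and was not called. The share of Lama5 among alpha chains per kb in the overexpression control went from 37.9% and 41.7% to 54.1% and 52.8%.

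Lama1 rose with CTCF degradation from 1791 and 1646 to 2169 and 2086 at 12 h and 2798 and 3166 at 24 h, a log2 difference of 0.79 ± 0.07 at 24 h (SE, limma, adjusted p = 0.00061). At 12 h the difference was 0.31 ± 0.07 (limma, adjusted p = 0.0305), a call lost when libraries were scaled to equal totals and when any 1 of the 4 libraries was left out. In serum it fell, from 1069 and 1004 to 753 and 896 (log2 difference -0.33 ± 0.09, SE, limma, adjusted p = 0.0419), and that call was lost under the same scaling. Lamb1 and Lamc1 were not called in the CTCF degradation table: Lamb1 was at 379 and 379, 311 and 341, then 434 and 406, and Lamc1 at 8508 and 8027, 7836 and 7844, then 8271 and 8274.

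Of collagen IV and the multiplexins, 1 gene each was called. Col4a2 fell from 86.3 and 67.2 to 29.0 and 33.3 at 24 h (log2 difference -1.27 ± 0.25, SE, limma, adjusted p = 0.0118), while Col4a1 went from 54.8 and 52.4 to 44.8 and 28.7 and was not called. Col18a1 fell from 645 and 607 to 425 and 477 at 12 h (log2 difference -0.47 ± 0.09, SE, limma, adjusted p = 0.0146). It was called lower in serum (-0.17) and with IAA in each of the 3 overexpression groups (-0.42, -0.30 and -0.50), against a rise of 1.46 with the Chd4 hairpin. At 24 h Col18a1 stood at 505 and 518 and was not called. The summed fibroblast markers went from 282 to 283 at 0 h to 147 to 155 at 12 h and 139 to 147 at 24 h, with 4 of 10 listed, and their part was not tested. Lamb2 stood at 2302 and 692 in the 24 h libraries, which lay on both sides of the 0 h pair at 1139 and 843.

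**Figure D3:**
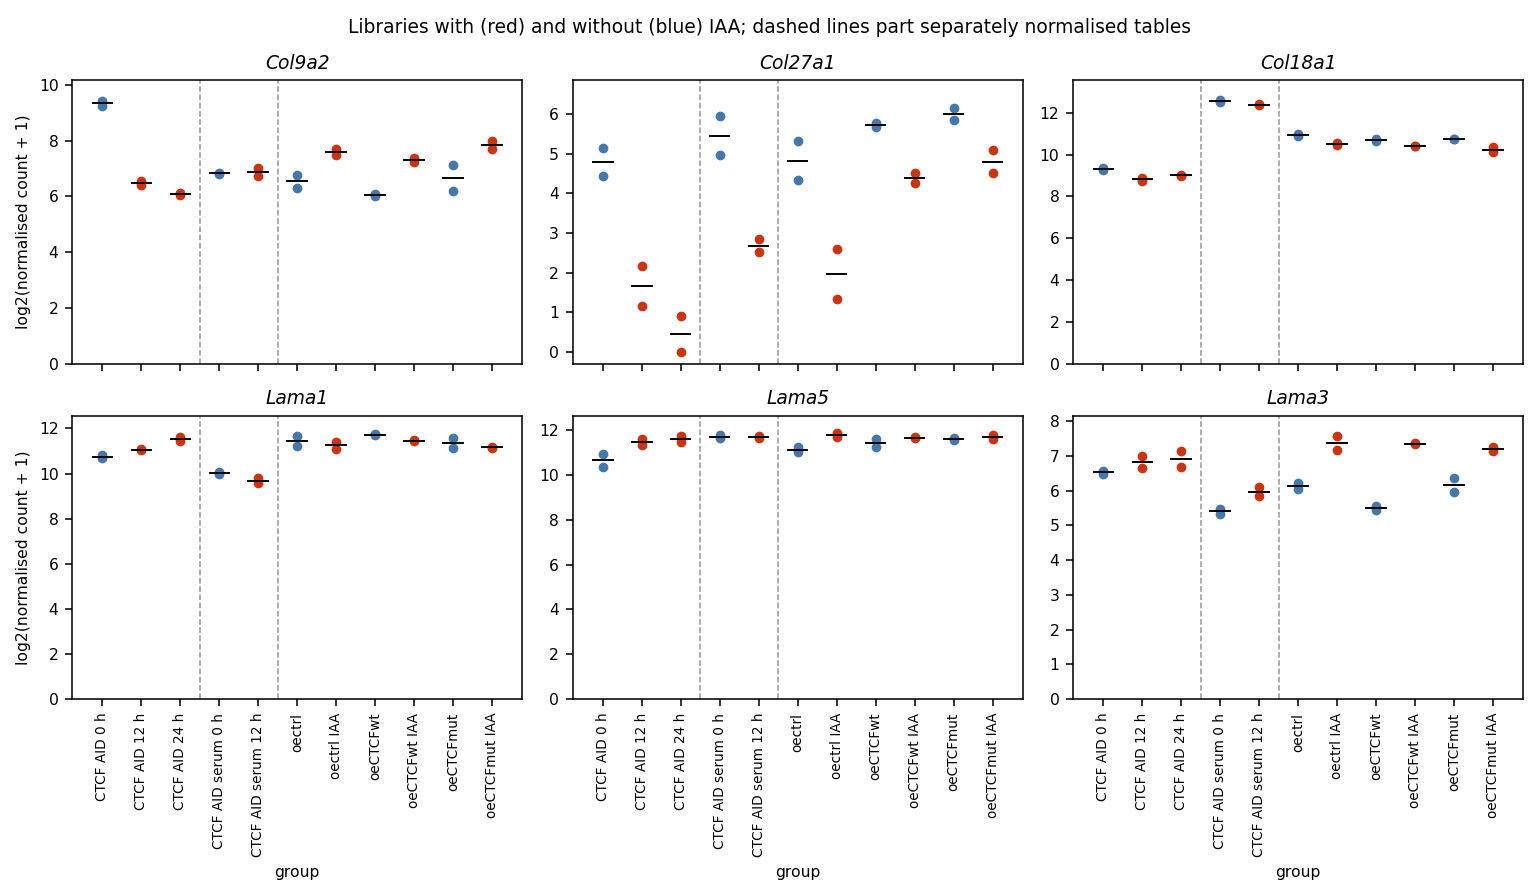
Normalised counts of 6 genes as log2(value + 1), each point a library and each line the mean of 2, without IAA in blue and with it in red; dashed lines part 3 separately normalised tables. Col27a1 is lower in red in each pair of groups, Col9a2 is lower in the first table and higher in the third, and Lama3 is higher in red in the third.

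In the serum cells, 12 h of IAA changed 8 of 38 members, or 21.1% against 17% of all genes: 3 were higher, against 7.73% of all genes, and 5 lower, against 9.25%. Col14a1, a FACIT collagen on the surface of collagen I fibres, rose from 7.45 and 8.07 to 31.5 and 30.0, and passed the filter through the IAA libraries, so that it had to differ. Col6a5 rose from 25.8 and 52.1 to 134 and 89.2, and Col5a1 from 242 and 216 to 344 and 298. Beside Col27a1, Lama1 and Col18a1, the calls lower were Col2a1, from 110.8 and 87.3 to 60.6 and 60.1, and Lamc1, from 6249 and 6310 to 5147 and 5042 (log2 difference -0.30 ± 0.03, SE, limma, adjusted p = 0.000467). Col4a1 was at 583 and 528, then 624 and 664, Col4a2 at 316 and 338, then 379 and 340, and Lamb1 at 2206 and 2507, then 2133 and 2211; none of these was called. Of the 8 calls, 1 was lost with libraries scaled to equal totals and 2 with quantile normalisation. The summed pluripotency markers stood at 67832 to 68030 before and 57280 to 58213 after IAA, and the endoderm markers at 2915 to 3073 and 2660 to 2677. Muscle and endothelial markers stood at 1714 to 1776 and 2235 to 2280, and trophoblast markers at 1457 to 1517 and 1606 to 1677. The part of these markers was not tested.

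Degrading the cohesin subunit RAD21 changed few members, and the 2 times share the 0 h libraries. At 12 h, 3 of 25 members were called, which is 12% against 13% of all genes: 2 were higher, against 6.66% of all genes, and 1 lower, against 6.35%. Col4a1 rose from 74.9 and 78.3 to 144 and 244, a difference of 1.28 ± 0.28 (SE) on the log2 scale (limma, adjusted p = 0.0304). Col4a2 went from 58.3 and 93.7 to 154 and 142 and missed the call (limma, adjusted p = 0.066). Lamb1 rose from 285 and 260 to 415 and 467, and Col7a1 fell from 40.9 and 31.5 to 8.20 and 2.87, a mean under 10. Col7a1, with a mean of 16.9 over the table, passed the filter only through the 0 h libraries. It thus had to differ, and its call, the 1 lower, supports nothing. All 3 calls were lost when either 0 h library or the second 12 h library was left out.

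At 24 h, 3 of 25 members were called, against 13.7% of all genes: 2 were higher, against 6.54%, and 1 lower, against 7.16%. Beside Col9a2, Lama1 rose from 1853 and 1981 to 2898 and 2818 (log2 difference 0.58 ± 0.10, SE, limma, adjusted p = 0.0122), and Lama5 from 2222 and 2125 to 2753 and 2463 (0.26 ± 0.07, adjusted p = 0.0439). Both laminin calls were lost without the first 0 h library or without the first 24 h library. Col4a1 was at 96.2 and 135 and Col4a2 at 63.2 and 93.2 by then, neither called. Lamc1 stood between 11876 and 12662 in all 6 RAD21 libraries. Summed endoderm markers were 587 to 588 at 0 h, 693 to 726 at 12 h and 629 to 665 at 24 h, trophoblast markers 1289 to 1326, 1070 to 1077 and 1010 to 1075, and muscle and endothelial markers 5029 to 5034, 5756 to 5865 and 5984 to 6081. Their part was not tested.

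In the overexpression table, IAA changed 7 of 23 members in the control cells, against 25.3% of all genes: 4 were higher, against 12.8%, and 3 lower, against 12.5%. In wild-type CTCF cells it changed 7, against 21.4% of all genes, with 3 higher (11.1%) and 4 lower (10.3%). In mutated CTCF cells it changed 3, against 16.2% of all genes, with 2 higher (8.31%) and 1 lower (7.92%). Lama3 rose in all 3: from 72.7 and 65.4 to 190 and 142 in the control, from 45.7 and 42.8 to 163 and 160 with wild-type CTCF, and from 61.2 and 80.7 to 151 and 139 with mutated CTCF. The log2 differences were 1.24 ± 0.19, 1.85 ± 0.19 and 1.03 ± 0.19 (SE, limma, adjusted p = 0.000857, 0.000113 and 0.00427). The gene was not called in the CTCF degradation table, where it stood at 87.7 and 94.0 at 0 h and 98.5 and 126 at 12 h.

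Col9a3 fell in the control from 43.6 and 70.9 to 26.1 and 20.6 and with wild-type CTCF from 58.5 and 40.4 to 17.6 and 21.6, opposite in direction to its partner Col9a2. Col5a1 rose in the control from 124 and 187 to 265 and 293. With wild-type CTCF, Lamb1 fell from 568 and 542 to 412 and 454, and Col26a1 rose from 51.9 and 77.7 to 116 and 99.3. Col4a1 and Col4a2 were not called in any overexpression comparison. For Col7a1, 1 control library without IAA stood at 301 and the other at 5.30, so that its mean there rests on 1 library.

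Markers moved with IAA in these cells as well, and their part was not tested. Summed endoderm markers went from 170 to 229 without IAA to 307 to 329 with it in the control and from 192 to 215 to 317 to 379 with mutated CTCF, but stood at 231 to 256 and 226 to 236 with wild-type CTCF. Trophoblast markers went from 1551 to 1704 over the 6 libraries without IAA to 1847 to 2016 over the 6 with it, and muscle and endothelial markers from 2469 to 2776 to 3105 to 3393.

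Without IAA, few members were called with added CTCF. With wild-type CTCF 1 of 23 was called, as higher, against 0.897% of all genes (0.502% higher and 0.395% lower). With mutated CTCF 2 of 23 were called, both higher, against 5.55% of all genes (3.31% higher and 2.24% lower). Ctcf itself was at 4134 and 4332 in the control, 9275 and 9481 with wild-type and 9589 and 9712 with mutated CTCF. Lamc1 rose from 11284 and 10760 to 13175 and 12655 with wild-type CTCF (log2 difference 0.23 ± 0.04, SE, limma, adjusted p = 0.0178) and to 12579 and 11898 with mutated CTCF (0.15 ± 0.04, adjusted p = 0.0444). Lama5 rose with mutated CTCF, from 2386 and 2043 to 2972 and 3172 (log2 difference 0.48 ± 0.10, SE, limma, adjusted p = 0.0246). Over all genes called with mutated CTCF, 59.7% were higher as deposited and 41.4% with libraries scaled to equal totals, and under that scaling the Lamc1 call was lost.

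The difference between IAA effects with and without added CTCF was tested as an interaction, and limma called 0 members for wild-type CTCF and 0 for mutated CTCF, against 1.41% of all genes (1.1% higher and 0.309% lower) and 1.64% (1.05% higher and 0.581% lower). At an unadjusted p under 0.05 there were 6 and 4 of 23, against 11.8% and 12.5% of all genes. All these comparisons share the control or the untreated libraries, so their values stand side by side.

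Over the 11 comparisons without the interactions, Lama5 was called higher in 6 and lower in 0, Col18a1 higher in 1 and lower in 5, Col27a1 lower in 4 and higher in 0, and Lama3 higher in 4 and lower in 0. Col9a2 was called higher in 3 and lower in 3. For Col27a1, the 12 h and 24 h calls of CTCF degradation and the serum call had to differ, so they support nothing. Never called were 9 members: Col11a2, Col12a1, Col1a2, Col20a1, Col3a1, Col4a5, Col6a6, Col8a1 and Col8a2. Several of these comparisons share libraries, so the counts describe how often a gene was called and are not independent.

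**Figure D4:**
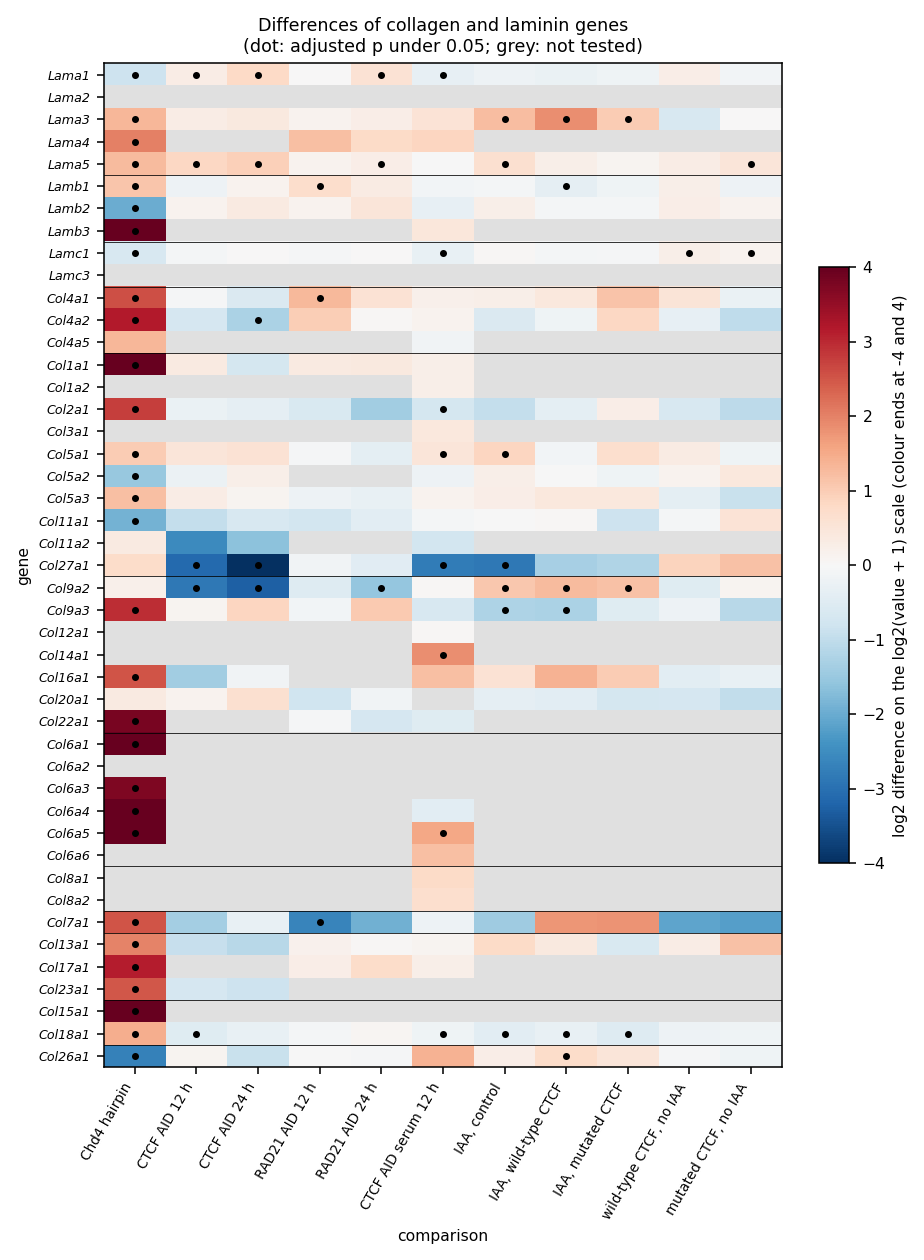
Log2 differences on the log2(value + 1) scale of 45 of the 46 genes (rows, by matrix class) in 11 comparisons (columns), red for higher and blue for lower, with a dot at an adjusted p under 0.05 and grey where not tested. The first column holds 30 dots and no other column holds more than 8.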

How the data were processed

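Polyadenylated RNA was sequenced in 32 libraries, and the authors deposited 5 tables of normalised counts, here treated as a signal that is never negative. Per the submitters' processing notes, Trim Galore, Bowtie2, STAR, RSEM, DESeq2 and mm10 were used; their roles and versions are not given in the sources used here. Tables were normalised separately, so tests stayed within a table. No common step fitted the low values (coherence 0.352 to 0.562), so reads were not recovered and depth is unknown beyond the totals. The CTCF degradation table ends in 1 incomplete line, which was dropped, and genes after it were not analysed there. Genes averaging 10 or more over a table entered 1 linear model per table on log2(value + 1), covering all its groups (R 4.3.3, limma 3.58.1, eBayes with trend). A call means a p under 0.05 after Benjamini-Hochberg adjustment over all genes tested; a log2 difference on this scale understates changes of low genes. The fit was tested on simulated data. An exact permutation test of 2 against 2 libraries has a smallest p of 0.333. Levels per kb use the union of M21 exons (GRCm38), and 11 members share exon bases with a gene on the other strand, so their values are uncertain. Members named are the called ones (all where 12 or fewer, otherwise those with a mean of at least 50), collagen IV chains, Lama1, Lama5, Lamb1 and Lamc1, and the 3 largest changes; others are named to account for every member. Of each pathway list, called genes with the highest means are named. Members and lists were chosen with earlier results of these data known. Values of 1 member are not reported here, though counts over the members include it.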

Additional observations from a re-analysis of the deposited data

Results flagged for a closer look

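Lama1 changed in opposite directions after 12 h of CTCF degradation in cells without and with the serum label. Its log2 difference was 0.31 without and -0.33 with serum, with both treated libraries above both untreated ones in the first case and below them in the second. Col9a2 fell by 2.86 on the log2 scale in the CTCF degradation table and rose by 1.07 with IAA in the overexpression control cells, again with no overlap between libraries. These values come from tables normalised separately, and neither difference between tables was itself tested. Both Lama1 calls were lost when libraries were scaled to equal totals.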

How the results depend on the processing

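No called member changed direction under any alternative: of 755 refitted values of the 75 called member and comparison pairs, 0 reversed, and 42 pairs kept the call wherever they had a value, 28 of them with the Chd4 hairpin. Of the 42, 15 had no value under some alternative, where the gene missed the filter. Testing only genes with a mean of at least 100, which leaves fewer members, gave 17 members with the Chd4 hairpin, 3 after 24 h of CTCF degradation and 5 in serum. Leaving out 1 library at a time, members called ranged from 28 to 35 with the Chd4 hairpin, 1 to 3 after 12 h (2 and 3 without the first and second 0 h library, 1 and 2 without the first and second 12 h library) and 3 to 6 after 24 h of CTCF degradation (3 without the first 0 h library), 0 to 3 after 12 h of RAD21 degradation (0 without the first 0 h or the second 12 h library, 1 without the second 0 h library), 1 to 3 after 24 h of it (1 without the first 0 h library), and 3 to 9 in serum (3 without either 12 h library). For IAA the ranges were 4 to 8 in the control (4 without its second IAA library), 1 to 5 with wild-type CTCF (3 without its first untreated, 1 and 4 without its first and second IAA library) and 2 to 4 with mutated CTCF. Without IAA they were 0 to 1 for wild-type and 0 to 1 for mutated CTCF, and for the interactions 0 to 1 and 0 to 1. Col27a1 had 8 refits at 24 h and 8 at 12 h, with no value without either 0 h library or at a filter of 100; it lost the call in 0 and 2 of them. With only the compared groups fitted, wild-type and mutated CTCF without IAA called 0 and 0, and with groups by treatment label wild-type CTCF called 0; mutated CTCF called 1 with equal totals, 1 with quantile normalisation and 1 with the replicate block. Same-numbered libraries deviated from their group means with correlations of only -0.0635 to 0.102, so the numbers pair nothing; the replicate block gave 32 members with the Chd4 hairpin, 10 in serum and 0 to 7 elsewhere. In these cases the cause was not tested. Where 1 library of a group was left out, the other is assumed to vary like the other groups. Low levels limit most collagen VI, Col1a2, Lama2 and Lamc3 values.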
